A study of Mus musculus with 4 samples.

Results

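Neurotrophins are secreted growth factors that are made as precursors, cut to mature ligands and released by neurons, in part in response to activity. Mature brain-derived neurotrophic factor and neurotrophin-3 signal through the receptor tyrosine kinases TrkB and TrkC, whereas the precursors bind p75 together with sortilin, and the sortilin family of sorting receptors also carries neurotrophins and Trk receptors through the cell. In the dentate gyrus, brain-derived neurotrophic factor and TrkB are known for roles in synaptic plasticity and in the survival and growth of newborn granule cells. The genes described here are 9 of the neurotrophin, Trk and sortilin families, taken by name from the 45706 genes of the count matrices. They are the ligands Bdnf and Ntf3, the receptors Ntrk2 (TrkB) and Ntrk3 (TrkC), and the sorting receptors Sort1, Sorl1, Sorcs1, Sorcs2 and Sorcs3. The gene of p75 is not among them.

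The study followed adult-born granule cells (aGCs) of the mouse dentate gyrus by single-nucleus RNA sequencing. Young-adult male and female mice on a C57Bl/6J background carried a tamoxifen-inducible Cre allele and the CAGfloxStop-Sun1/sfGFP reporter. Tamoxifen labels the nuclear envelope of cells in which Cre is active and of all their progeny, and labelled nuclei were sorted after 1, 2, 4 or 8 weeks. The 4 libraries, w1, w2, w4 and w8, are each 1 pool of left dentate gyri from several mice and all carry both alleles and the tamoxifen treatment. Weeks therefore have no replicate, and the spread between libraries is not the spread between animals. Because the Cre driver is active in oligodendrocyte progenitors as well as in radial glia-like cells (RGLs), the sorted nuclei included both lineages.

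The authors assigned 14367 of 17046 barcodes to 13 clusters, which form a sequence from RGLs through neural progenitors (NPC), neuroblasts (NB1, NB2), immature (GCimm1, GCimm2), young (GCyoung) and mature (GCmat1, GCmat2) aGCs, beside astrocytes (Astro), oligodendrocyte precursors (OPC), oligodendrocytes (Oligo) and pericytes (Peri). Each library held 2867 to 4243 clustered nuclei and 13227971 to 28595331 UMIs, with a median of 4369 to 7704 UMIs per nucleus. A library shared 1 to 6 barcodes with each other library. The summed level of 6 granule cell markers (Prox1, C1ql2, Stxbp6, Calb1, Rbfox3, Slc17a7) was 2452 per 1000000 UMIs in GCyoung, 2338 in GCmat1 and 2230 in GCmat2, against 375 in RGL. The GCmat2 cluster held 60 nuclei in w4 and 149 in w8, and the GCmat1 cluster 403 and 2927.

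Levels are counts per 1000000 (CPM), that is, raw UMIs of a gene per 1000000 UMIs of a cluster, in a single library unless all are pooled, so each is relative to all RNA captured there. Clusters were compared with edgeR's quasi-likelihood test, with terms for cluster and library, on UMI sums of at least 10 nuclei from Astro to GCmat2. OPC, Oligo and Peri were not in the fit. The fit scaled the sums by trimmed-mean (TMM) factors, whereas the levels are raw. Libraries that hold only 1 cluster of a pair also bear on its log2 change. The log2 change can therefore differ from the levels within libraries, and the part of each of these was not tested. From GCimm2 to GCyoung, the log2 change of Ntrk3 was 0.29, though GCyoung was the lower in both w4 and w8. A gene was called where its p, adjusted after Benjamini-Hochberg over the 13513 genes tested, was 0.05 or less and its fold 1.5 or more. The clusters were drawn by the authors from the same nuclei, and the study names Bdnf and Sorcs3 among the genes that mark GCmat2, so the comparisons of clusters are not independent evidence for these genes.

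The 9 genes lie on 8 chromosomes of mm10 (GRCm38): Bdnf at chr2:109674700-109727007, Ntf3 at chr6:126101412-126166910, Ntrk2 at chr13:58806569-59133970, Ntrk3 at chr7:78175959-78738012, Sort1 at chr3:108284082-108361511, Sorl1 at chr9:41964720-42124297, Sorcs1 at chr19:50143299-50678646, Sorcs2 at chr5:36017180-36398139 and Sorcs3 at chr19:48206025-48805505. Both exonic and intronic reads were counted, and the spans run from 52.3 kb for Bdnf to 599 kb for Sorcs3, so levels are compared between genes per kb of span. On that scale the highest values in RGL were Ntrk2 at 3.00 and Sort1 at 2.60 CPM per kb. In GCmat1 the highest were Ntrk3 at 2.15 and Sort1 at 2.11, and in GCmat2 they were Bdnf at 3.90 and Ntrk3 at 2.55. Sorcs3 was at 0.0447 per kb in GCmat1 and 1.43 in GCmat2. The libraries were made from 3′ ends, and whether counts scale with span was not tested. The order of genes depends on that scale: without it, GCmat2 held 204 CPM of Bdnf and 1431 of Ntrk3.

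**Figure D1:**
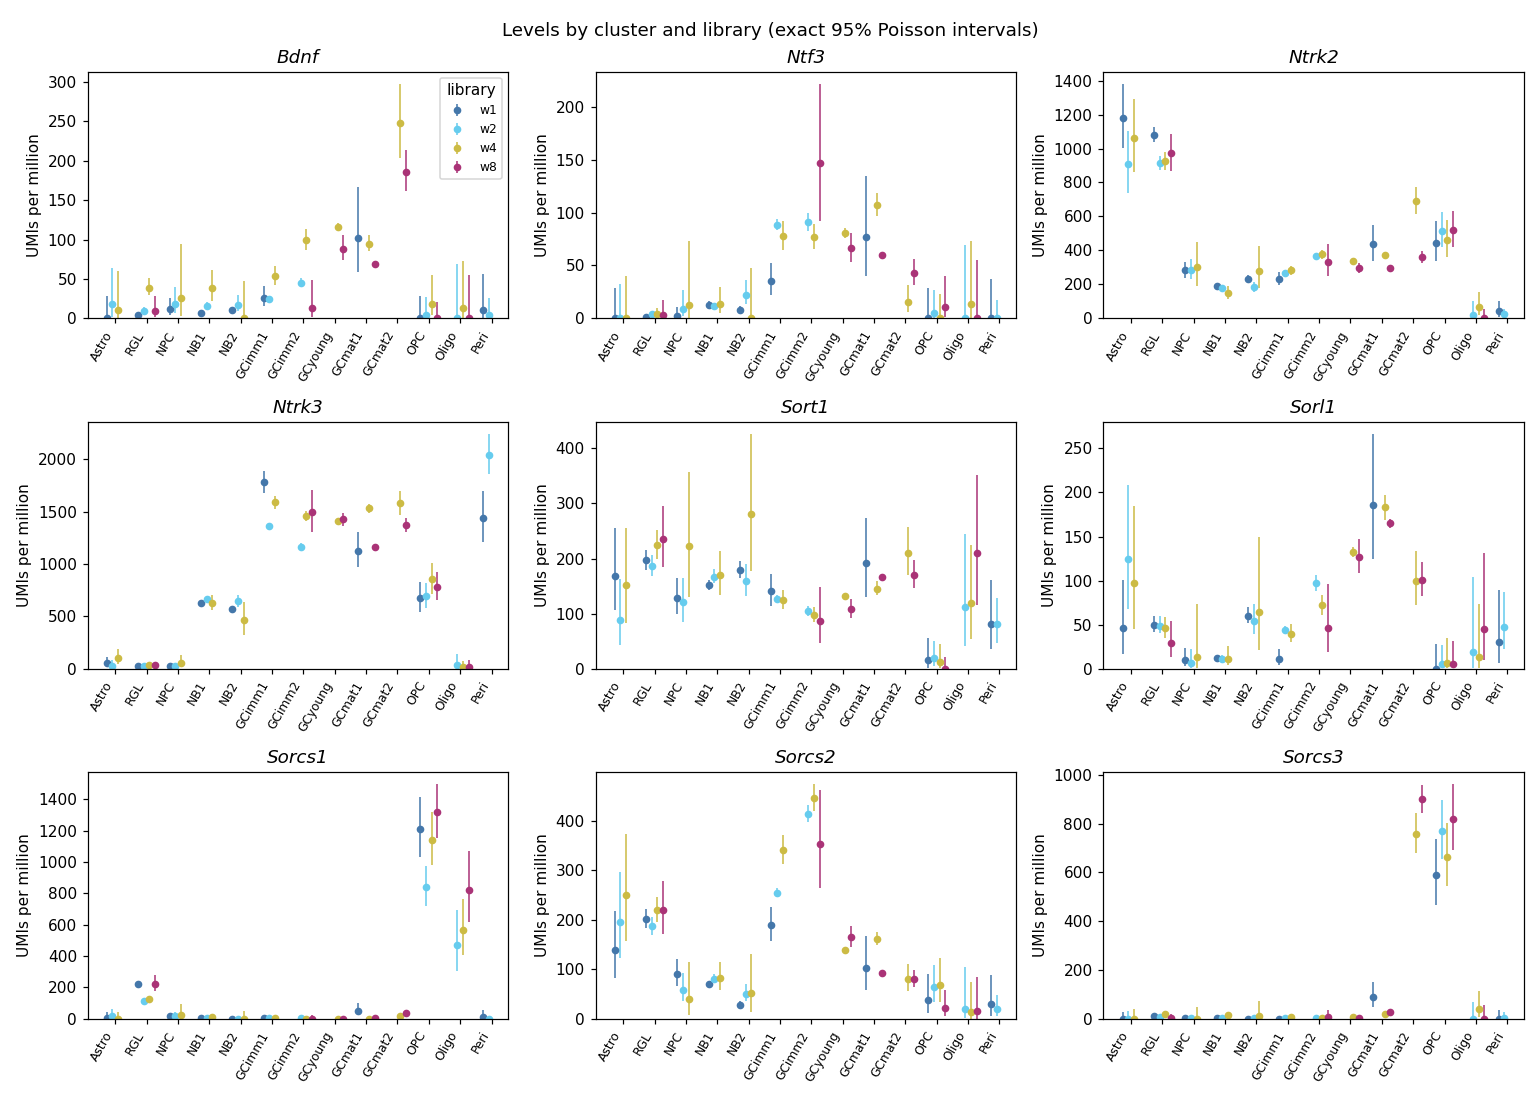
Level of each gene in every cluster and library with at least 10 nuclei, in CPM on linear axes that start at 0. Points are single libraries (colour, w1 to w8) and bars are exact 95% Poisson intervals, which cover counting error only. Ntrk2 is highest in Astro and RGL, Ntrk3 in Peri and the clusters from GCimm1 to GCmat2, and Sorcs3 in GCmat2 and OPC.

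RefSeq promoter windows of GRCm38.p6 were at hand for 6 of the 9 genes, with 14 windows in all and none for Ntrk3, Sort1 and Sorcs2. The 250 bases upstream of each start were searched on both strands for 4 patterns. These were the cAMP response element (CRE) TGACGTCA, its shorter form TGACG (which also lies within the CRE), the AP-1-like letters TGANTCA (AP-1 below) and the E-box CANNTG. Activity-dependent transcription of Bdnf is known to use sites of some of these kinds. The N in TGANTCA is any base, so a match need not be an AP-1 site. No window of the 9 genes held the full CRE letters TGACGTCA, which were found in 1.55% of 32851 windows. Variants of the CRE were not searched, so this does not show that a promoter lacks one. The TGACG match of Bdnf lies in TCACGTCA, which differs from those letters only in the second base. TGACG was in 2 of the 14 windows and in 17.8% of all. AP-1 was in 1, as TGAATCA, and in 6.75% of all, and the E-box was in 10 and in 66.2% of all. The windows printed here are those with a TGACG or AP-1 match, shown for Bdnf because it has 7 annotated starts with a window, together with that of Sorcs3, the gene with the largest change between mature clusters. Sequences run 5′ to 3′ on the strand of the gene, and capitals mark the TGACG or AP-1 letters.
Bdnf, chr2:109676782-109677031, + strand, AP-1: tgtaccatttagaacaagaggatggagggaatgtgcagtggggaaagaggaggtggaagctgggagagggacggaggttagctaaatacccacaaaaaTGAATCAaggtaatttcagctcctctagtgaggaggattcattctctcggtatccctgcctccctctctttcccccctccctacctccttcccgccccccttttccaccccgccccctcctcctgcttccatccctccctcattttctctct
Bdnf, chr2:109692186-109692435, + strand, TGACG: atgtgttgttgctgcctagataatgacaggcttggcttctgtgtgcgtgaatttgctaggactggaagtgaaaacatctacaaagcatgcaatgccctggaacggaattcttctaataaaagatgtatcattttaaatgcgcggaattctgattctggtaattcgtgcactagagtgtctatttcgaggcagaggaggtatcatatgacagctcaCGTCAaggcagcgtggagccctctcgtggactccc
Sorl1, chr9:42124298-42124547, − strand, TGACG: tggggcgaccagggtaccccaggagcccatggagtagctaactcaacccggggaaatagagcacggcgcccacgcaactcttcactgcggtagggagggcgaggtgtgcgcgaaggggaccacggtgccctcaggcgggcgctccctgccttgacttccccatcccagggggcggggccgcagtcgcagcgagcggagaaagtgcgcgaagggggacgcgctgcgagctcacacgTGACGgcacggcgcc
Sorcs3, chr19:48205775-48206024, + strand, no match to the CRE, TGACG, AP-1 or E-box letters: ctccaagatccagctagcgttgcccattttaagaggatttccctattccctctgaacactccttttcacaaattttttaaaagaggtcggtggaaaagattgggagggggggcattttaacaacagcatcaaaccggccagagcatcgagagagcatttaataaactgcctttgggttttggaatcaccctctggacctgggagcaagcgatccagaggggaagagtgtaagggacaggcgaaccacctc
The gene-level counts do not separate the Bdnf starts, so its levels are sums over all of its transcripts.

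Bdnf was low in glia and progenitors, climbed through the immature and young stages and was highest in GCmat2. It was at 4.35, 9.87, 39.0 and 9.56 CPM in RGL of w1, w2, w4 and w8, at 7.07, 15.9 and 38.1 in NB1 of w1, w2 and w4, and at 26.0, 24.6 and 53.6 in GCimm1. In both of these clusters the w4 library stood above the others, and w4 was the highest library for Bdnf in 9 of the 12 clusters that had another library to compare. Some of those 9 rest on few counts: NPC had 2 Bdnf UMIs in w4, and OPC and Oligo had 4 and 1 over all libraries. GCimm2 was at 45.3 in w2, 99.2 in w4 and 13.3 in w8 (28 nuclei), GCyoung at 116 in w4 and 88.5 in w8, and GCmat1 at 102 in w1 (17 nuclei), 94.8 in w4 and 69.6 in w8. GCmat2 was at 248 in w4 and 186 in w8, with no overlap with any other cluster among libraries of at least 10 nuclei. The rises from NB1 to GCimm1 (log2 change 1.02, SE 0.263, edgeR adjusted p = 0.0035), GCimm1 to GCimm2 (0.93, SE 0.220, adjusted p = 0.002) and GCimm2 to GCyoung (0.66, SE 0.229, adjusted p = 0.032) were each called. The first was kept in 11 of 14 alternative analyses and not without w1 (0.75, adjusted p = 0.066). The second was kept in 9 of 14 and not without w2 (0.77, adjusted p = 0.35). The last was kept in only 6 of 14 and not without w2 (0.72, adjusted p = 0.079), and without w8 it was 0.51, under the fold required. Without w4 the last was 2.09 (adjusted p = 0.0011), where the 28 GCimm2 nuclei of w8 with 2 Bdnf UMIs give the level within a library. Within w4 the ratio of GCyoung to GCimm2 was 1.17 (95% counting interval 1.02 to 1.35). The step from GCyoung to GCmat1 was -0.15 and was not called. Next in the order after GCmat2 came GCyoung at 114, GCmat1 at 72.8, GCimm2 at 61.4 and GCimm1 at 28.2, and library ranges of neighbours in that order overlapped. The 8 other clusters were between 4.55 and 16.4.

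The share of nuclei with a Bdnf UMI followed the same order at the top: 68.9% in GCmat2 (144 of 209, exact 95% interval 62.2 to 75.1%), 51.5% in GCyoung and 39.2% in GCmat1 (37.5 to 40.8%), at median depths of 7254, 7458 and 8138 UMIs. With every nucleus thinned to 2000 UMIs, which left out 141 nuclei, the shares were 28.2%, 20.0% and 14.1%. These shares pool libraries, and the intervals cover counting error only, not the spread between libraries. GCyoung nuclei were mostly of w4 and GCmat1 nuclei mostly of w8. Among GCmat1 nuclei with pseudo-time, the share without thinning was 50.4% in w4 and 38.1% in w8. In Oligo, a cluster that should lack the gene, 1 of 45 nuclei had a UMI (2.22%, 0.0563 to 11.8%) at a median of 4801 UMIs.

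Ntf3 was low through the neuroblast stage, rose at GCimm1 and was lower in GCmat2 than in GCmat1. It was at 1.31 to 4.42 CPM in RGL, at 12.9, 11.2 and 13.4 in NB1 of w1, w2 and w4, and then at 35.1, 88.6 and 77.6 in GCimm1. All 3 GCimm1 libraries were above all NB1 libraries, and the rise was called (log2 change 2.47, SE 0.251, adjusted p = 4.3e-11). From there the level stayed between 59.8 and 147 in GCimm2, GCyoung and the w4 and w8 libraries of GCmat1, and none of the steps between GCimm1 and GCmat1 was called. The order of the highest clusters, GCimm2 at 87.8, GCimm1 at 84.6, GCyoung at 80.01 and GCmat1 at 65.5, therefore lies within the spread of the libraries. Astro had 0 Ntf3 UMIs in 67 nuclei, which allows a level of up to 8.95 CPM. In thinned nuclei the share was 13.2% in GCyoung.

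Of the other genes of these families, Ntf5, which encodes neurotrophin-4, had 6 UMIs of 91942382 over all clustered nuclei. Ngfr, the gene of the p75 receptor, had 0 UMIs, which allows a level of up to 0.0326 CPM.

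Ntrk2, whose products are full-length and truncated TrkB that these counts cannot tell apart, was a gene of the glial end of the sequence that fell in progenitors. It was at 1080, 914, 925 and 972 CPM in RGL of w1, w2, w4 and w8 and at 1180, 908 and 1062 in Astro of w1, w2 and w4, so these clusters overlapped. NPC was at 283, 286 and 301, below every RGL library, and the fall of 2.14 on the log2 scale was called (SE 0.199, adjusted p = 5.5e-13). The lowest neuronal level was 150 to 192 in NB1. It then rose from NB1 to GCimm1 (234, 270 and 283; log2 change 0.71, SE 0.181, adjusted p = 0.0033) and from GCimm1 to GCimm2 (0.67, SE 0.185, adjusted p = 0.0093). Both calls rest on several libraries: the former was lost without w2 (0.68, adjusted p = 0.13) or w4 (0.58, adjusted p = 0.17), and the latter without w1 (0.57, adjusted p = 0.023, under the fold required), w2 (0.70, adjusted p = 0.23) or w4 (0.69, adjusted p = 0.13). GCyoung was at 335 and 295 and the w4 and w8 libraries of GCmat1 at 372 and 295, so these clusters overlapped. OPC held 445 to 518 in the 4 libraries and Oligo 0 to 65.7. Thinned to 2000 UMIs, 80.6% of Astro, 80.1% of RGL and 6.67% of Oligo nuclei had an Ntrk2 UMI.

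Ntrk3, the receptor of neurotrophin-3, showed the reverse arrangement along the sequence. It was at 20.2 to 36.1 CPM in RGL, at 20.0, 27.7 and 52.4 in NPC of w1, w2 and w4, and at 625, 666 and 627 in NB1. The rise from NPC to NB1 was the largest called change of the 9 genes before the mature stages (log2 change 4.82, SE 0.339, adjusted p = 4.1e-17), and no library of NB1 overlapped NPC. A further rise to GCimm1 (1778, 1359 and 1588) was called (1.41, SE 0.209, adjusted p = 5.2e-07), after which GCimm1, GCimm2, GCyoung, GCmat1 and GCmat2 lay between 1127 and 1778 in every library with at least 10 nuclei and no step was called. The highest level was in Peri, at 1435 in w1 (18 nuclei) and 2041 in w2 (40 nuclei), and OPC was at 675 to 852. A UMI of Ntrk3 was seen in 8.06% of NPC, 66.7% of NB1 and 99.1% of GCimm1 nuclei, or 3.88%, 56.2% and 91.2% after thinning, against 8.89% and 0% in Oligo. Ntrk3 was detected in 80.8% of all clustered nuclei and is not among the genes of the deposited log2 table, for which the authors kept genes found in fewer than 80% of nuclei.

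**Figure D2:**
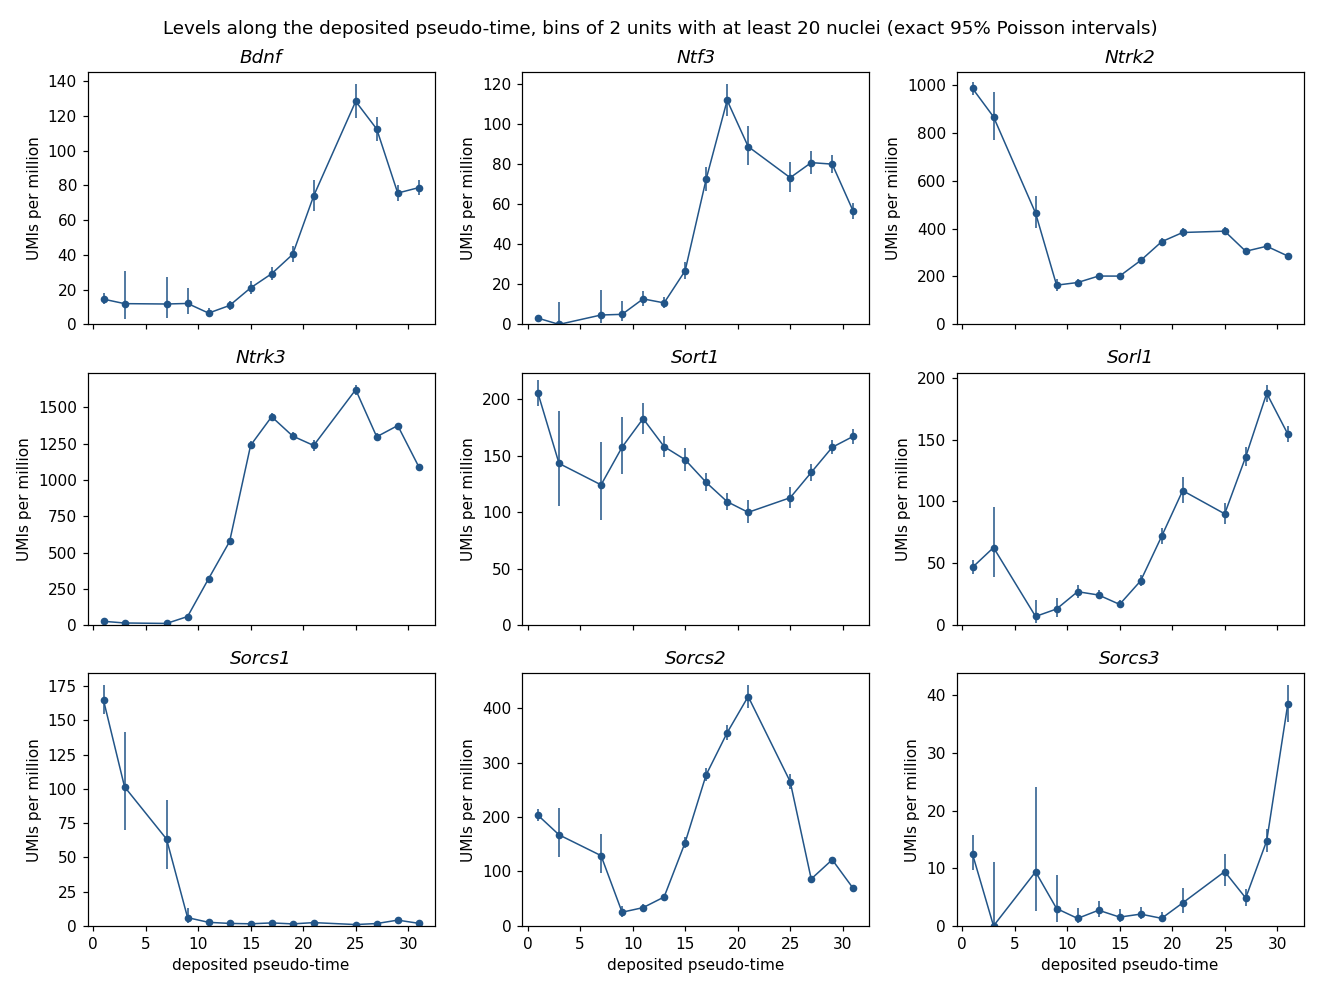
Level of each gene, in CPM on linear axes from 0, along the authors' deposited pseudo-time in bins of 2 units with at least 20 nuclei; bars are exact 95% Poisson intervals. Ntrk2 and Sorcs1 start high and fall before unit 10, Ntrk3 climbs between 8 and 16, Ntf3 peaks at 18 to 20, Sorcs2 at 20 to 22 and Bdnf at 24 to 26.

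Binned along the authors' pseudo-time, Ntrk2, Sort1 and Sorcs1 were highest in the first bin and the other 6 genes in later ones. Ntrk2 fell from 984 CPM in the first bin to 464 at 6 to 8 and 164 at 8 to 10. Ntrk3 was at 11.7 at 6 to 8, 320 at 10 to 12, 1238 at 14 to 16 and highest, at 1621, at 24 to 26. The peak of Ntf3 was 112 at 18 to 20, that of Sorcs2 421 at 20 to 22, that of Bdnf 128 at 24 to 26, that of Sorl1 187 at 28 to 30 and that of Sorcs3 38.5 at 30 to 32. GCmat2, OPC, Oligo, Peri and Astro nuclei have no pseudo-time, so these peaks leave out GCmat2, where Bdnf and Sorcs3 were higher. Because pseudo-time was computed from the same nuclei and bins pool libraries, these values are a description, with no test.

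Sort1, which encodes sortilin, was the steadiest of the family over the neuronal sequence. Its cluster levels lay between 102 CPM in GCimm2 and 202 in RGL from Astro to GCmat2. The only called step was a fall from RGL (197, 186, 224 and 236) to NPC (128, 120 and 223) by 0.88 on the log2 scale (SE 0.195, adjusted p = 0.0003), in which the 22 nuclei of w4 NPC overlapped RGL. OPC was lowest, with 15.3, 19.5, 12.5 and 0 in w1, w2, w4 and w8, whereas Oligo held 112, 118 and 210 in w2, w4 and w8.

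Sorl1, a sorting receptor that binds the amyloid precursor protein and retromer, fell in progenitors and rose by called steps from NB1 through GCimm1 and GCimm2 to GCyoung. With libraries pooled, NB2 (58.9) lay above GCimm1 (41.8). RGL was at 50.01, 48.9, 45.6 and 28.7 CPM and NPC at 10.02, 6.16 and 13.1, a called fall of 2.69 on the log2 scale (SE 0.469, adjusted p = 6.4e-06). NB1 was at 11.6, 11.2 and 11.2 and NB2 at 59.9, 54.4 and 64.0, so these clusters did not overlap, and the rise was called (2.41, SE 0.248, adjusted p = 2.6e-10). GCimm1 was at 10.7, 44.0 and 39.4, higher than NB1 in 2 of the 3 libraries (log2 change 1.76, SE 0.237, adjusted p = 5.5e-08). GCimm2 was at 97.0, 71.6 and 46.6 in w2, w4 and w8 (from GCimm1, 1.30, SE 0.195, adjusted p = 1e-06), GCyoung at 132 and 127 (from GCimm2, 1.08, SE 0.207, adjusted p = 6.1e-05) and GCmat1 at 186, 183 and 165 in w1, w4 and w8. Without w4 the rise to GCyoung was no longer called (1.13, adjusted p = 0.076). The step from GCyoung to GCmat1, 0.46, was not called.

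Sorcs1 was a gene of the oligodendrocyte lineage and of RGLs. OPC was at 1212, 842, 1140 and 1320 CPM in w1, w2, w4 and w8 and Oligo at 469, 565 and 824 in w2, w4 and w8, and thinned shares were 80.9% and 66.7% of nuclei. RGL was at 223, 110.4, 124 and 223, against 7.66, 17.8 and 0 in Astro (log2 change 4.14, SE 0.672, adjusted p = 5.8e-06). The level fell by 3.48 on the log2 scale to NPC (18.0, 18.5 and 26.2; SE 0.392, adjusted p = 2.1e-10) and by a further 2.16 to NB1 (2.99, 3.67 and 8.96; SE 0.653, adjusted p = 0.0082), the latter not called without w1 (-1.9, adjusted p = 0.063). The change from Astro to RGL was 5.35 without w2, and that from RGL to NPC -2.84 without w1. From NB2 to GCyoung no library with at least 10 nuclei exceeded 2.99.

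Sorcs2, a receptor for pro-neurotrophins that pairs with p75, moved in both directions along the sequence. It was at 202, 186, 220.1 and 219.9 CPM in RGL and at 90.2, 58.5 and 39.3 in NPC (fall of 1.72 on the log2 scale, SE 0.252, adjusted p = 1.8e-07). NB1 was at 70.1, 81.0 and 82.9 and NB2 at 28.2, 50.5 and 51.2 (log2 change -0.99, SE 0.245, adjusted p = 0.0091). GCimm1 reached 189, 254 and 341, above all NB1 libraries (from NB1, 1.83, SE 0.187, adjusted p = 3.2e-11), and GCimm2 414, 446 and 353 (0.74, SE 0.178, adjusted p = 0.0023). GCyoung was down to 139 and 164 (fall of 1.21 on the log2 scale, SE 0.212, adjusted p = 1.3e-05). The fall to NB2 was lost without w1 (-0.67, adjusted p = 0.64), the rise to GCimm2 without w2 (0.64, adjusted p = 0.23) and the fall to GCyoung without w4 (-0.94, adjusted p = 0.09). Of GCimm2 nuclei, 87.2% had a Sorcs2 UMI, 55.5% after thinning, against 6.67% and 2.22% in Oligo.

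Sorcs3 was near the floor in most of the sequence and high in OPC and GCmat2. OPC was at 590, 769, 664 and 819 CPM in w1, w2, w4 and w8. RGL was at 12.6, 7.99, 19.1 and 3.19 and NPC at 2.00, 3.08 and 0, a fall of 2.64 on the log2 scale (SE 1.04, adjusted p = 0.047) that was lost without w1 (-2.20, adjusted p = 0.28) or w2 (-3.20, adjusted p = 0.077) and kept in 6 of 14 alternative analyses. GCyoung was at 6.90 and 4.88 in w4 and w8 and GCmat1 at 17.5 and 27.2, both above both GCyoung values (log2 change 1.88, SE 0.310, adjusted p = 2.5e-05; without w4 2.61; with DESeq2 3.14, adjusted p = 0.15). Astro had 0 Sorcs3 UMIs in 67 nuclei, which allows a level of up to 8.95 CPM.

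GCmat1 and GCmat2 are the clusters labelled as mature aGCs, and their comparison asks how the smaller mature cluster differs from the main one in this system. Of the 9 genes, Bdnf, Sorcs1 and Sorcs3 rose and Ntf3 and Sorl1 fell, which is 5 called, beside 7.3% of all genes tested (407 higher, 579 lower). The median log2 change of the 9 was 0.15, beside -0.14 for all genes.

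The change of Sorcs3 was the largest. GCmat1 was at 17.5 CPM in w4 and 27.2 in w8, and GCmat2 at 758 and 900.0, a ratio within the library of 43.4 (95% interval 33.1 to 57.7) and 33.1 (30.0 to 36.5). Both GCmat2 libraries were above every GCmat1 library, including the 17 nuclei of w1 at 89.7. The log2 change was 4.94 (SE 0.241, adjusted p = 1.4e-21) and the call was kept in all 15 alternative analyses. A Sorcs3 UMI was seen in 83.7% of GCmat2 nuclei (175 of 209) and 10.2% of GCmat1 nuclei (344 of 3356), or 66.03% and 4.26% after thinning. The share was higher in OPC, at 91.6% and 73.3% after thinning. Without thinning it was 6.67% in Oligo and 0% in Astro.

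Bdnf was at 94.8 in w4 and 69.6 in w8 of GCmat1 and at 248 and 186 in GCmat2, with ratios of 2.61 (2.09 to 3.24) and 2.67 (2.30 to 3.09). The rise was called (log2 change 1.21, SE 0.216, adjusted p = 4.3e-05), though not with DESeq2 (1.08, adjusted p = 0.34) or without the library term (1.28, adjusted p = 0.063). Sorcs1 was detected in few nuclei: 3 UMIs in w4 and 43 in w8 of GCmat1 (0.832 and 1.70 CPM), and 8 and 38 UMIs in GCmat2 (17.7 and 34.3 CPM), with ratios of 21.3 (5.10 to 124) and 20.2 (12.7 to 32.0). The 17 GCmat1 nuclei of w1 were at 51.2, above both GCmat2 libraries, from 2 nuclei with a UMI. The 9 GCmat1 nuclei of w2, too few to enter the fit, were at 341 for Sorcs1, from 4 nuclei with a UMI, and at 156 for Sorcs3. With all sums of at least 3 nuclei in the fit, these included, the Sorcs1 change was 2.76 (adjusted p = 0.053). The call (log2 change 3.87, SE 0.487, adjusted p = 2.8e-08) was lost with DESeq2 (1.97, adjusted p = 0.46) and without w8 (2.48, adjusted p = 0.23). Of GCmat2 nuclei 7.66% had a Sorcs1 UMI.

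Ntf3 went the other way, from 107 to 15.5 in w4 and from 59.8 to 42.4 in w8. Both GCmat2 libraries were below the w1, w4 and w8 libraries of GCmat1, but the ratios, 0.145 in w4 and 0.710 in w8, were unequal. The fall of 1.30 on the log2 scale (SE 0.300, adjusted p = 0.002) was lost without w4 (-0.66, adjusted p = 0.44) and was -2.89 without w8. Sorl1 was at 183 and 165 in GCmat1 and at 99.5 and 100.2 in GCmat2, with ratios of 0.543 and 0.607 and no overlap (fall of 0.85 on the log2 scale, SE 0.214, adjusted p = 0.0051). That call did not hold without w4 (-0.71, adjusted p = 0.22) or without w8 (-0.93, adjusted p = 0.14).

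The other 4 genes were not called. Ntrk2 was at 372 and 692 in w4 and at 295 and 362 in w8, ratios of 1.86 and 1.23 (log2 change 0.55, SE 0.202, adjusted p = 0.1), and was called with DESeq2 (0.61, adjusted p = 0.032). Ntrk3 (1530 and 1578 in w4, 1166 and 1371 in w8), Sort1 (145 and 210 in w4, 166 and 171 in w8) and Sorcs2 (162 and 79.6 in w4, 92.4 and 80.3 in w8) had log2 differences of 0.15, 0.15 and -0.66, with edgeR adjusted p = 0.84, 0.77 and 0.1. Without w1, Sorcs2 was called as lower (-0.71, adjusted p = 0.034).

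**Figure D3:**
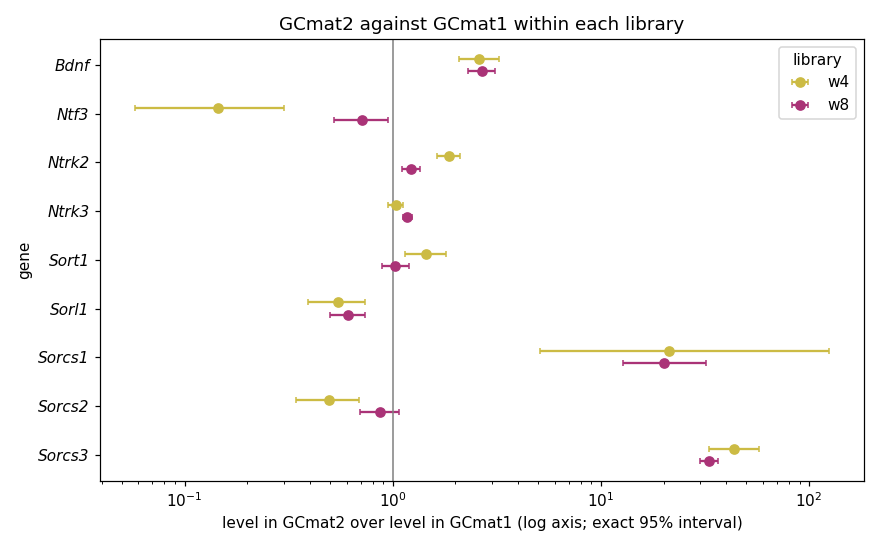
Level in GCmat2 divided by that in GCmat1 of the same library for each gene, on a log axis, with 95% intervals that cover counting error only. Colours are w4 and w8. Sorcs3 (43.4 and 33.1) and Sorcs1 (21.3 and 20.2) lie farthest above 1, Bdnf is at 2.61 and 2.67, and Ntf3 (0.145 and 0.710) differs most between the libraries.

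The marker lists place these mature nuclei as follows. All 4 oligodendrocyte precursor markers (Pdgfra, Cspg4, Prkg2, C1ql1) were at 0 in GCmat2, beside a sum of 1506 in OPC, the other cluster with high Sorcs3. The granule cell sum was 2117 to 2371 in GCmat1 and 2143 to 2445 in GCmat2 in w4 and w8. The sum of 6 astrocyte markers was 120 in GCmat1 and 254 in GCmat2, with Gja1 at 0 in GCmat2, that of 5 oligodendrocyte markers 75.6 and 113 (62.7 and 115 in w4, 77.6 and 112 in w8) with Mog at 0 in GCmat2, that of 6 immature neuron markers 68.5 and 96.1, the CA3 pyramidal sum was 309 and 411, and the interneuron sum 42.7 and 48.7 with 5 of 8 markers at 0. Their part in the results was not tested. In addition, 220 GCmat1 nuclei, 216 of them from w8, have no deposited pseudo-time. The study left GCmat1 nuclei with a strong signal of ventral genes out of pseudo-time, in a number that differs from this one, so whether these are the same nuclei is not known. Bdnf was at 43.0 in them and 75.5 in the rest, Sorcs2 at 173 and 94.5, and Sorcs3 at 5.32 and 28.8. Without them 5 of the 9 genes were called.

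Detection of Bdnf and Sorcs3 was read in the same nuclei. Both were seen in 58.3% of the 60 GCmat2 nuclei of w4 and 59.1% of the 149 of w8, Bdnf without Sorcs3 in 23.3% and 4.70%, Sorcs3 without Bdnf in 16.7% and 28.2%, and neither in 1.67% and 8.05%. In GCmat1 both were seen in 4.96% and 6.32%, and Bdnf without Sorcs3 in 44.9% and 31.3%. At least 5 Sorcs3 UMIs were found in 46.7% and 49.0% of GCmat2 nuclei, against 0.993% and 1.06% of GCmat1 nuclei. Sorcs3 UMIs were thus seen in most GCmat2 nuclei of both libraries.

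**Figure D4:**
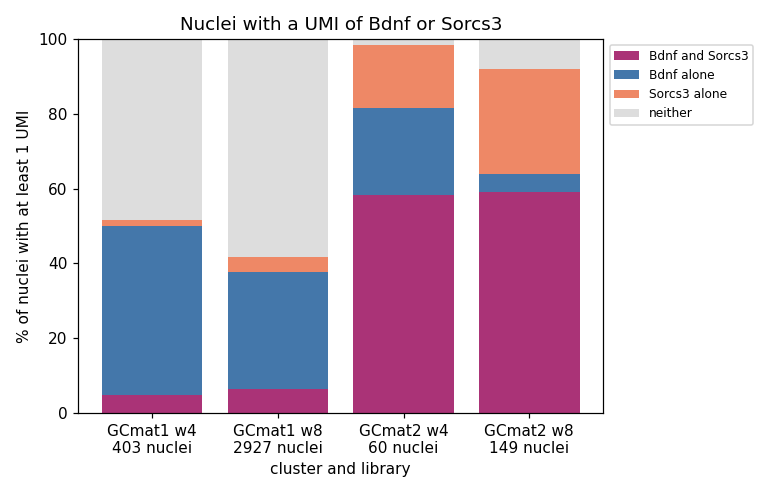
Percentage of nuclei of GCmat1 and GCmat2 in w4 and w8 with UMIs of both Bdnf and Sorcs3, of one alone, or of neither; bars add to the whole of each group. Both genes were seen in 58.3% and 59.1% of GCmat2 nuclei, against 4.96% and 6.32% of GCmat1 nuclei.

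Across the other steps, the count of called genes among the 9 varied. It was 1 from Astro to RGL (1 higher, 9.58% of all genes called), 6 from RGL to NPC (all lower, 29.5%), 2 from NPC to NB1 (29.3%), 2 from NB1 to NB2 (2.94%), 6 from NB1 to GCimm1 (all higher, 12.5%), 4 from GCimm1 to GCimm2 (all higher, 9.43%), 3 from GCimm2 to GCyoung (2 higher, 18.9%) and 1 from GCyoung to GCmat1 (higher, 3.85%). The 6 that fell from RGL to NPC were Ntrk2 and all 5 sorting receptors, with a median log2 change of -1.72 over the 9 genes beside -0.05 over all genes. The 6 that rose from NB1 to GCimm1 were Bdnf, Ntf3, Ntrk2, Ntrk3, Sorl1 and Sorcs2, with a median of 1.02 beside -0.01.

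**Figure D5:**
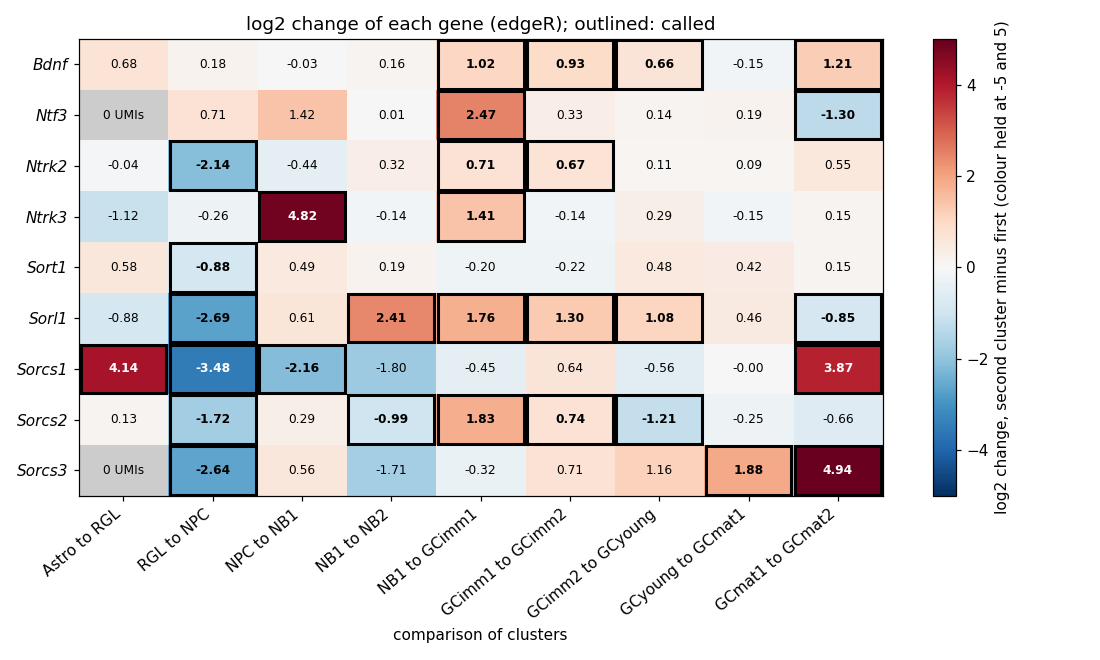
Log2 change of each of the 9 genes in each comparison of clusters, second minus first, from the edgeR fit. Outlined bold cells are called (adjusted p of at most 0.05 and a fold of at least 1.5), colour is held at -5 and 5, and grey cells marked 0 UMIs had no UMI in the first cluster. The column RGL to NPC has 6 called falls and the column NB1 to GCimm1 6 called rises.

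Further genes of the pathway were read from lists. Among 17 tested genes of proneurotrophin cleavage and release, 3 rose and 1 fell from GCmat1 to GCmat2 (23.5% beside 7.3% of all genes, median log2 change 0.04 beside -0.14). Pcsk1, a prohormone convertase, went from 1.10 to 67.9 CPM (log2 change 5.55, SE 0.392, adjusted p = 8.3e-16). Plat, the tissue plasminogen activator that turns plasminogen into plasmin, rose by 1.06 (adjusted p = 0.015) and Pcsk2 by 0.74 (adjusted p = 0.016). Serpini1, an inhibitor of that activator, fell by 1.33 (adjusted p = 0.021). Earlier, Pcsk2 rose from GCimm1 to GCimm2 (2.82) and from GCimm2 to GCyoung (2.19). In the other steps 1 to 9 of the 17 were called. Their share, with that of all genes in brackets, was 23.5% (9.58%) from Astro to RGL, 29.4% (29.5%) from RGL to NPC and 52.9% (29.3%) from NPC to NB1. It was 11.8% (2.94%) from NB1 to NB2, 17.6% (12.5%) from NB1 to GCimm1 and 35.3% (9.43%) from GCimm1 to GCimm2. From GCimm2 to GCyoung it was 41.2% (18.9%), and from GCyoung to GCmat1 5.88% (3.85%).

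Of the signalling genes, the Ras-MAPK arm had 1 higher and 2 lower among 44 from GCmat1 to GCmat2 (6.82%, near the 7.3% of all genes, median -0.07): the adaptor Shc3 rose by 2.48 (adjusted p = 2.3e-12), whereas Rasgrf2, a Ras exchange factor, fell by 3.08 (adjusted p = 3.8e-12) and the kinase gene Rps6ka5 by 1.48 (adjusted p = 2e-04). The PI3K-Akt and PLC-gamma arms had 4 higher and 4 lower among 31 (25.8%, median 0.09), with Pik3r1 at 1.58, the TRP channel gene Trpc6 at 1.17 and Pik3r3 at 0.97, and with falls of 3.10 for Itpr1, the inositol trisphosphate receptor, 1.05 for Prkcb and 0.99 for Camk2a. Among 12 p75 and Nogo receptor partners 1 rose, Lingo1 (1.38, adjusted p = 5e-05), a share of 8.33% near the 7.3% of all genes, and the list median was -0.23. Among 30 partners, adaptors and retromer subunits of the sortilin family 3 rose and none fell (10%, median -0.02): the trafficking gene Nsg1 (0.96), Lrp1 (0.74) and its chaperone Lrpap1 (0.73). From NPC to NB1, 10 of the 31 PI3K-Akt and PLC-gamma genes rose and none fell, a share of 32.3% near the 29.3% of all genes, with Camk4 at 4.03 and Camk2b at 3.01.

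Among the lists read here, that of activity-regulated genes had the highest share called from GCmat1 to GCmat2, though its own share was larger in 2 earlier steps. Of 39 tested among 52, 15 rose and none fell from GCmat1 to GCmat2 (38.5% beside 7.3% of all genes, median log2 change 0.86 beside -0.14). Besides Pcsk1, which is in both lists, Nptx2, a neuronal pentraxin, went from 1.27 to 19.2 CPM (3.48, SE 0.524, adjusted p = 1.9e-06) and Vgf, a secreted granule protein, from 1.07 to 13.5 (3.16, SE 0.518, adjusted p = 1.2e-05). From GCyoung to GCmat1 the list had 2 higher and 2 lower (10.3%, beside 3.85% of all genes), and from NB1 to GCimm1 5 higher and 7 lower (30.8%, beside 12.5%). Several members of the list, among them Acvr1c, Kcnip3 and Nrxn3, are genes the study picked from these nuclei, so its count is not independent evidence of its direction.

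Genes whose level followed each member most closely were read as Pearson's r of log2(CPM + 1) over the 29 sums of a cluster in a library from Astro to GCmat2, so OPC, Oligo and Peri have no part in it. These points share libraries and depth, and r is a description with no test. Ntrk3 was followed most closely, by Nrg3 (0.975), Tmem63c (0.969) and Grm7 (0.966), and Ntf3 by Ccbe1 (0.961), Slc16a11 (0.948) and Grb14 (0.938). For Ntrk2 the leading genes were Dtna (0.940), RP24-156O12.1 (0.933) and Ddhd1 (0.915), and for Bdnf they were Chsy3 (0.896), Adcy1 (0.874) and Pcsk5 (0.868). Values were lower for Sorcs1 (Epb4.1l4b, 0.825), Sorcs3 (Fam126b, 0.824), Sorl1 (Rgl1, 0.822), Sorcs2 (Gabrg3, 0.802) and Sort1 (Fbxo4, 0.668).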

How the data were processed

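Counts were the raw UMI counts per gene and barcode that the authors deposited, made with STARsolo 2.7.4a on mm10 from exonic and intronic reads, per the labels and the study's methods. The annotation release and the strand setting are not given in the sources used here. The authors removed doublets and low-quality nuclei and a group of w4 nuclei, and deposited clusters, pseudo-time and a log2 table (size-factor scaled, log2(x + 1)), which was used only for an alternative.

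Counts of the clustered nuclei were added up within each cluster of each library. The 29 sums of at least 10 nuclei from Astro to GCmat2 (not OPC, Oligo or Peri) entered 1 edgeR fit with cluster and library terms (16 residual degrees of freedom), on genes that passed the tool's filter, with p-values adjusted over 13513 genes. Standard errors are the log2 change over the root of F. Shares have exact Clopper-Pearson 95% intervals and levels exact Poisson ones, and a count of 0 allows up to 3, for counting error only. Scripts were tested on simulated data. Alternatives were no library term, RLE factors, DESeq2, other filters and fold limits, nuclei thinned to 2000 UMIs, each library left out, GCmat1 nuclei with pseudo-time only, and limma on the log2 table.

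The genes and lists were chosen with earlier results of these data known. All 9 were named in every comparison, and from each list at most the 3 largest rises and 3 largest falls called alike in every library with at least 50 UMIs, beside Ntf5, Ngfr and the 3 genes most like each of the 9. Some genes that the rule names are not reported here. Acvr1c, Kcnip3 and Nrxn3 were named after their values were seen. Gene spans are from GENCODE on GRCm38 and promoter windows from RefSeq (GRCm38.p6). Used were Python 3.11.15, numpy 2.4.6, scipy 1.17.1, pandas 2.3.3, matplotlib 3.10.9, R 4.3.3, edgeR 4.0.16, DESeq2 1.42.0 and limma 3.58.1.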

Additional observations from a re-analysis of the deposited data

Results flagged for a closer look

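Of the barcodes, 2679 (15.7%) have no deposited cluster, and 1628 of them are in w4. They were not used in any comparison, and all 9 genes had UMIs in them. Over all libraries their levels, in CPM (UMIs per 1000000 UMIs), were 199 for Bdnf (60.1 in clustered nuclei), 23.7 for Ntf3 (58.0), 897 for Ntrk2 (343), 1264 for Ntrk3 (1093), 121 for Sort1 (148), 144 for Sorl1 (100.4), 84.2 for Sorcs1 (23.2), 118 for Sorcs2 (158) and 356 for Sorcs3 (31.4). In w4 alone they were 273 for Bdnf (103), 1150 for Ntrk2 (377), 467 for Sorcs3 (25.6) and 18.2 for Ntf3 (76.2).

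For 4 genes the ratio of a pair of clusters lay above 1 in one library and below 1 in another, each with a 95% counting interval that left out 1, and the difference between the libraries was not tested. The ratio of NB2 to NB1 for Ntf3 was 2.01 in w2 and 0.622 in w1. From GCyoung to GCmat1, Ntrk3 was at 1.08 in w4 and 0.817 in w8, and Sorcs2 at 1.16 in w4 and 0.562 in w8. The ratio of GCimm2 to GCimm1 for Sorcs3 was 2.65 in w2 and 0.234 in w4, from levels under 6 CPM.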

How the results depend on the processing

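Of 424 values of called genes under 15 alternatives, 349 kept the call, 75 lost it and 0 changed direction. The settings with a fold of 2 and with no fold required reuse the main fit. Neither can change a direction, and the latter cannot lose a call, here or in the numbers of alternatives that kept a call above. Of 719 values of genes not called, 11 gained a call. The number of the 9 genes called is given next where it moved by more than 1.5 times.

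From Astro to RGL (1) it was 2 with RLE factors, 3 with DESeq2, 2 with at least 20 nuclei and 0 with limma on the deposited log2 table. Leaving out each library in turn gave 1 to 2. From RGL to NPC (6) limma gave 2, and leaving out a library 5 to 6. From NPC to NB1 (2) DESeq2 gave 1, at least 3 nuclei 1, limma 0 and leaving out a library 1 to 2. From NB1 to NB2 (2) it was 1 with no library term, with DESeq2 or with a fold of 2, 0 with limma, and 1 to 2 with a library left out. From NB1 to GCimm1 (6) limma gave 1 and leaving out a library 5 to 6. From GCimm1 to GCimm2 (4) no library term gave 2, a fold of 2 gave 1, limma 0 and leaving out a library 1 to 4. From GCimm2 to GCyoung (3) limma gave 1 and leaving out a library 1 to 3. From GCyoung to GCmat1 (1) DESeq2 and limma gave 0, and leaving out a library 1 to 1. From GCmat1 to GCmat2 (5) DESeq2 gave 3, thinned nuclei 3, limma 2 and leaving out a library 3 to 6. Calls over all genes moved as well in most of these settings. With limma they went from 1850 higher and 2142 lower to 101 and 221 in RGL to NPC, and from 407 and 579 to 67 and 77 in GCmat1 to GCmat2. Without w2 they went from 881 and 393 to 293 and 117 in GCimm1 to GCimm2. With RLE factors in Astro to RGL they were 455 and 854, beside 644 and 651. The cause was not tested. The limma setting applies the same fold limit to means of log2(x + 1) per nucleus, not to summed counts. On that scale Bdnf was at 0.141 in GCimm1 and 0.344 in GCimm2, where edgeR gave a log2 change of 0.93. Counts of calls with limma are therefore not on a like scale with the others.

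In GCmat2 Ntf3 and Sorl1 were not called in thinned nuclei (-1.12, adjusted p = 0.12, and -0.75, adjusted p = 0.11). Other scaling moved the share of higher calls over all genes from 49.7 to 34.8% (RLE) or 26.3% (DESeq2) in Astro to RGL, and with DESeq2 from 61.5 to 72.7% in NB1 to NB2, 49.1 to 37.2% in GCimm2 to GCyoung, 41.5 to 24.5% in GCyoung to GCmat1 and 41.3 to 55.4% in GCmat1 to GCmat2. The median of all genes moved from 0.27 to 0.07 or 0.00 in Astro to RGL, from 0.06 to -0.05 or -0.07 in NPC to NB1, from 0.03 to -0.08 (DESeq2) in GCimm2 to GCyoung, and from -0.14 to -0.03 or -0.01 in GCmat1 to GCmat2.

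After thinning, the cluster with the highest share was the same for 8 of the 9 genes. The library entered the main fit as a block, so that differences common to a library are not read as differences between clusters. Sorcs1 had 2136 and Sorcs3 2882 UMIs in all, which limits the precision of their low levels.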
